A study of Mus musculus with 10 samples.

Results

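The 31 genes described here mark glial cells of the adult mouse hippocampus: 20 mark astrocytes and 11 mark oligodendrocyte precursor cells (OPCs). They were taken by symbol from a table of 19938 genes with a single symbol, and a gene with several transcript clusters (sets of probes for a transcript) was represented by the brightest. All 31 were measured and none lies in the segments that Ts65Dn mice carry in 3 copies, which are chr16:84718281-97962627 and chr17:3064318-8986648 on GRCm38. Pla2g7 is on mouse chromosome 17 too, at chr17:43567994-43612202, outside the segment.

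RNA was measured in 5 Ts65Dn mice and 5 control littermates, all male, aged 16 weeks and of F1 hybrid B6C3B background, with 1 array per mouse. Ts65Dn mice carry a small extra chromosome with part of mouse chromosome 16 and the part of mouse chromosome 17 near its centromere, and model Down syndrome. The control mice lack it, and both genotypes received no treatment that the labels name. Right and left hippocampus of a mouse were pooled into 1 RNA, so each value is a mean over all cells of the tissue, and fewer cells of a type and less RNA per cell cannot be told apart. The comparison asks whether these glial genes, which are present in 2 copies in both genotypes, differ in level between trisomic and control hippocampi.

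Astrocytes take up glutamate and potassium from around synapses, convert glutamate to glutamine, and join into networks through gap junctions, with endfeet on blood vessels that hold water channels. OPCs are dividing cells spread through the adult brain that carry the receptor for platelet-derived growth factor and proteoglycans on their surface. Some of them leave the cycle, pass a stage marked by Gpr17, and become the oligodendrocytes that make myelin. Several of the members are not restricted to the cell type they stand for here: Clu is also made by choroid plexus and some neurons, Glul by oligodendrocytes, S1pr1 by endothelium, Pdgfra by fibroblasts, Cspg4 by pericytes, Cspg5 and Ptprz1 by neurons or astrocytes, and Xylt1 by many cell types.

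Promoter sequences were available for 22 of the 31 members, as 30 windows from 250 bases before to 50 bases after a RefSeq start. Those of Gfap and Slc1a2 are shown for the astrocyte members and those of Ptprz1 and Lhfpl3 for the OPC members. These are, on GRCm38.p6, Gfap at chr11:102897151-102897450 (minus strand), Slc1a2 at chr2:102706188-102706487 (plus strand), Ptprz1 at chr6:22875252-22875551 (plus strand) and Lhfpl3 at chr5:22745804-22746103 (plus strand). The Slc1a2 window is at a RefSeq start within the gene, which spans chr2:102658239-102790784, and not at its first base. The sequences are written 5′ to 3′, and capitals mark a match to 1 of the motifs named after them.
Gfap: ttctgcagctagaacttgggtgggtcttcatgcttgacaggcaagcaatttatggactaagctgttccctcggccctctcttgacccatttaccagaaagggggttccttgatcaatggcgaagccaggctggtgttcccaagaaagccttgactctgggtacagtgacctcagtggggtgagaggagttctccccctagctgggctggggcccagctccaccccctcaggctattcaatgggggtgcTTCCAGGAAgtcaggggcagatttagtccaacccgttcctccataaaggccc
Slc1a2: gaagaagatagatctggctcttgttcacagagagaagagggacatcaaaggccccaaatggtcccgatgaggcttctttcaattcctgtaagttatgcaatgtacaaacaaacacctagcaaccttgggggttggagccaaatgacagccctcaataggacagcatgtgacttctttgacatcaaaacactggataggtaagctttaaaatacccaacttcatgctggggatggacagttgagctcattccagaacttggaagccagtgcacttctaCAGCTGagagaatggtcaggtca
Ptprz1: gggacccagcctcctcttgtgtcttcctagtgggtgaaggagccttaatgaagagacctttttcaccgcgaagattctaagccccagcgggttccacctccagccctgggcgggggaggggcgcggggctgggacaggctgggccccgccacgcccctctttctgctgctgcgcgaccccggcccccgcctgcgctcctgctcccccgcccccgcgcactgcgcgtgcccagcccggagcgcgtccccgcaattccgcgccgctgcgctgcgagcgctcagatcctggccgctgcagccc
Lhfpl3: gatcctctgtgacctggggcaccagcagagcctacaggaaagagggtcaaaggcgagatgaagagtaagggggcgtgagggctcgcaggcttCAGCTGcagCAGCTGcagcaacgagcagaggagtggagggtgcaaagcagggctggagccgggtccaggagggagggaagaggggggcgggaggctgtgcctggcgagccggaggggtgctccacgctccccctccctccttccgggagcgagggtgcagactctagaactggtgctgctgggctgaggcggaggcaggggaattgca
The motifs were searched on both strands and none contains another. The STAT motif TTCNNNGAA, capital in Gfap, was in 9 of the 30 windows and in 8.30% of all 32851 windows of the genome. Those 9 windows belong to 8 members, Acsbg1, Aldoc, Gfap, Neu4, Ntsr2, Pla2g7, Slc1a3 and Sox6, and windows of 1 gene can overlap. The E-box CAGCTG, capital in Slc1a2 and at 2 places in Lhfpl3, was in 6 of 30 windows against 16.3% of all, those of Fgfr3, Glul, Lhfpl3, Pcdh15, Slc1a2 and Sox6. The SOX motif, ACAAAG or ACAATG, was in 6 of 30 windows against 28.6%, all of them windows of Pla2g7 or Sox6. The NFI motif TTGGCA was in 3 of 30 against 14.1%, those of Aldoc, Cspg4 and Sox6. Such matches describe letters and not binding. The windows of Aqp4, Atp1b2, C1ql1, Clu, Cspg5, Gpr17, S1pr1, Sox9 and Xylt1 were not analysed here.

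The arrays were alike in level, with medians between 7.38 and 7.41 on the log2 scale over 23410 tested transcript clusters. The deposited signals were already quantile normalized, which makes levels alike, so these medians are no check of array quality. The lowest correlation between 2 arrays was 0.994. As a check of the labels, 10 genes in 3 copies, Dyrk1a and App among them, were picked with earlier results of these data known. All 10 were higher in Ts65Dn mice, with no overlap between genotypes and a median log2 difference of 0.43. In that direction 135 of the 23410 rows did not overlap. Not every gene in 3 copies was apart in this way, as Olig2 overlapped between genotypes. Mean log2 signal over the 10 arrays lay between 8.85 and 12.95 for the astrocyte members and between 7.23 and 10.86 for the OPC members, against a median of 7.40 over all tested rows. Neu4 and Pcdh15 were the only members below that median. Choroid plexus markers varied widely between mice of both genotypes, from a mean of 6.71 to 9.34. They were highest in Ts65Dn 2, control 5, Ts65Dn 4 and control 2.

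Ts65Dn mouse 4 stood apart from the other trisomic mice in some reactive glial genes, which were chosen for description after their values were seen. Lcn2, a secreted lipocalin that reactive astrocytes make, was at 10.27 in this mouse and between 5.67 and 6.58 in the other 9. Osmr, a cytokine receptor chain, was at 8.59 there against at most 7.98 elsewhere, and Cp, ceruloplasmin, at 8.47 against at most 7.79. Serpina3n, a protease inhibitor, was at 11.78 against 11.01 to 11.41. The complement gene C1qb of microglia was at 11.19 against at most 10.53. Other genes of the same lists went the other way or were unremarkable in this mouse. Tnc, a reactive astrocyte gene, was at 5.46 against 6.06 to 6.35, and P2ry12 of microglia at 8.18 against at least 8.24. Vim and Cd44 were within the range of the other mice. The array of mouse 4 was the highest of 10 for 8 of the 24 measured reactive astrocyte genes and for 6 of the 20 astrocyte members, Pla2g7, Slc1a3, Glul, Gjb6, Aldh1l1 and Acsbg1. It was also the lowest of 10 for 2 astrocyte members, Sox9 and Aqp4, and for 4 OPC members, Cspg5, Sox6, Lhfpl3 and Xylt1. Other arrays were extreme for some genes too. Ts65Dn 1 was the highest for 5 reactive astrocyte genes, and Ts65Dn 2 and control 1 were each the lowest for 5 astrocyte members. How often an array was the highest or lowest over all tested rows was not counted. A difference that moves by over 1.5 times, or changes sign, when Ts65Dn mouse 4 is left out is given both ways.

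**Figure D1:**
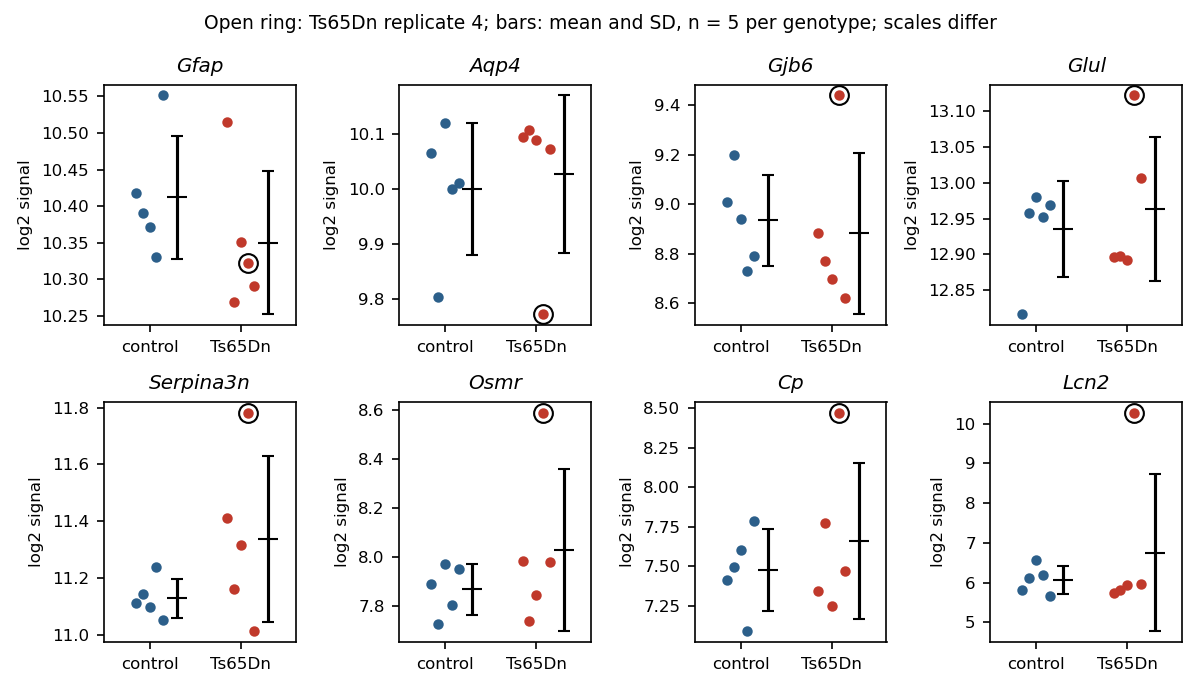
Log2 signal of 4 astrocyte members (upper row) and 4 reactive astrocyte genes (lower row) in each mouse, by genotype. Each point is a mouse, the open ring is Ts65Dn mouse 4, and bars give mean and SD of 5 mice per genotype on scales that differ between panels. Mouse 4 is the highest of 10 for Gjb6, Glul, Serpina3n, Osmr, Cp and Lcn2 and the lowest for Aqp4, while Gfap, at 10.32, is within the range of the others.

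No member passed the test across all transcript clusters (limma, adjusted p under 0.05), 0 of 20 for astrocytes and 0 of 11 for OPCs, where 0.316% of all rows passed. Every member had an adjusted p that rounds to 1.00. At an unadjusted p under 0.05, 3 members were lower in Ts65Dn mice, Clu among the astrocyte genes and Cspg5 and C1ql1 among the OPC genes, where 1.43% of all rows were lower at that level. At the same level 0 members were higher, where 1.73% of all rows were. A rank method after the kind the study used called 1 astrocyte member lower (S1pr1) and 4 OPC members lower (Cspg5, Gpr17, Lhfpl3 and C1ql1), with 2.47% of all rows lower. It called 0 members higher, with 2.89% of all rows higher. For 0 of 31 members did all Ts65Dn mice lie below all controls, which 0.308% of all rows did.

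Small values below zero were nevertheless common in both lists. The log2 difference, Ts65Dn minus control, was below 0 for 14 of 20 astrocyte members, with a median of -0.06 (0.962-fold), and for 10 of 11 OPC members, with a median of -0.08 (0.948-fold). Over all tested rows 52.4% of the differences were below 0 and the median was -0.003. Among the 12250 rows at least as bright as the dimmest member the share was 49.8%, and among the 2659 rows at least as bright as the median member it was 47.7%. Without Ts65Dn mouse 4, 18 of 20 astrocyte members were below 0 with a median of -0.06, and 10 of 11 OPC members with a median of -0.08. That was the highest astrocyte count as each mouse was left out in turn. The lowest was 13 of 20, without Ts65Dn 1, Ts65Dn 5 or control 2. The OPC count was 9 or 10 of 11 in these comparisons. The 95% interval of the fold lay between 1/1.25 and 1.25 for 29 of 31 members, all but Gjb6 and Gpr17, and within 1.5-fold for all 31. The arrays thus bound the difference of each member in array signal, which is not the same as showing that it is 0. The 10 genes in 3 copies picked above had a median array ratio of 1.35-fold, for a copy ratio of 1.5. Whether array ratios understate RNA ratios was not tested.

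**Figure D2:**
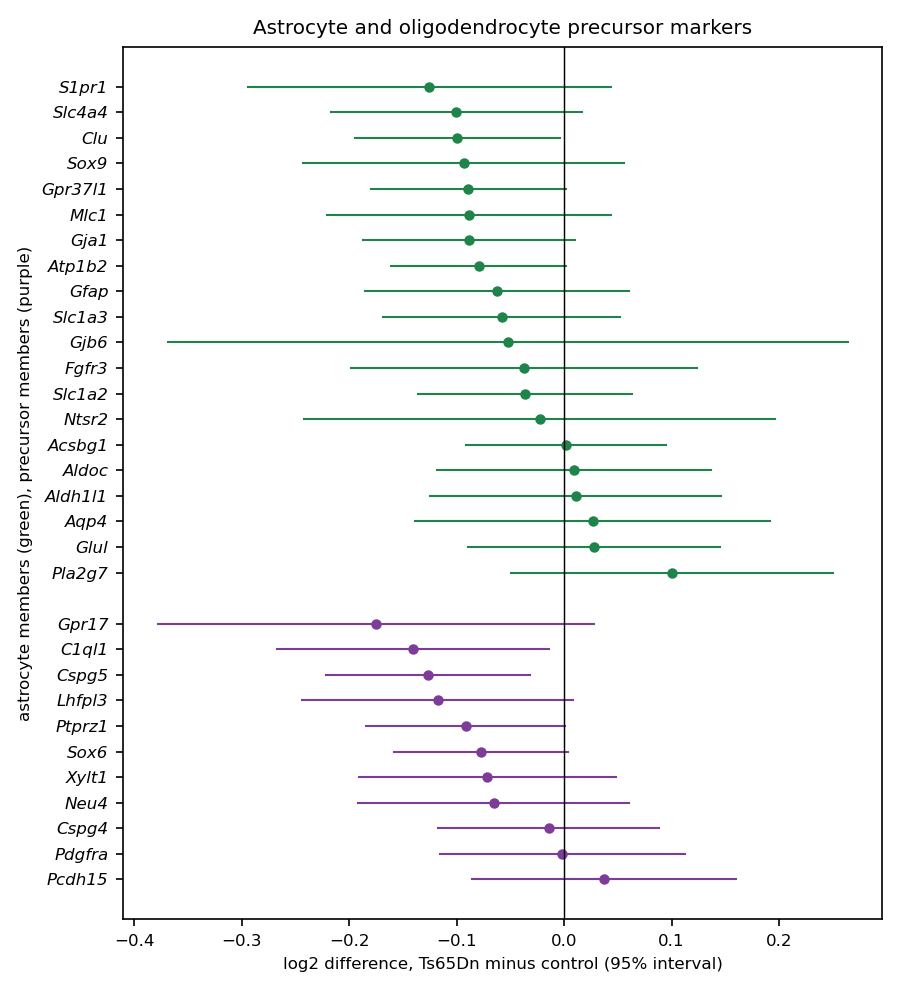
Log2 difference, Ts65Dn minus control, of each of the 31 members (points) with its 95% interval from limma (lines; n = 5 per genotype). Of 20 astrocyte members (green) 14 lie below 0 and of 11 OPC members (purple) 10 do, and the interval excludes 0 only for Clu, C1ql1 and Cspg5, before adjustment.

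The mean of the 11 OPC members was lower in each Ts65Dn mouse than in each control. It was 8.88, 8.82, 8.81, 8.83 and 8.88 in Ts65Dn mice 1 to 5 and 8.89, 8.94, 8.93, 8.95 and 8.89 in controls 1 to 5. The genotypes were thus at 8.84 ± 0.0312 and 8.92 ± 0.0277 (SD, n = 5), a log2 difference of -0.08 (0.948-fold). The gap between the highest trisomic and the lowest control mouse was small, 8.876 against 8.886, and the genotypes overlapped when arrays were centred on their medians, when they were quantile normalized again, when the median over members replaced the mean, and over the 6 members left without Pdgfra, Cspg4, Cspg5, Ptprz1 and Xylt1. They stayed apart without Ts65Dn mouse 4, where the difference was -0.07. The mean has no p-value, since the members were chosen with results on these mice known.

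The mean of the 20 astrocyte members overlapped between genotypes. It was 10.84, 10.84, 10.85, 10.93 and 10.87 in Ts65Dn mice 1 to 5 and 10.89, 10.95, 10.93, 10.86 and 10.91 in controls 1 to 5. The highest trisomic mouse was number 4 and the lowest control was number 4. The genotypes were at 10.87 ± 0.0360 and 10.91 ± 0.0347 (SD, n = 5), a difference of -0.04, which became -0.06 without Ts65Dn mouse 4. Counted gene by gene against the median of the 10 arrays, 13, 14, 16, 10 and 12 of the 20 astrocyte members were low in Ts65Dn mice 1 to 5. In controls 1 to 5 the counts were 10, 2, 4, 14 and 5, so that control 4 resembled the trisomic mice. Of the 11 OPC members 6, 8, 8, 8 and 5 were low in Ts65Dn mice 1 to 5 and 6, 6, 1, 2 and 5 in controls 1 to 5.

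**Figure D3:**
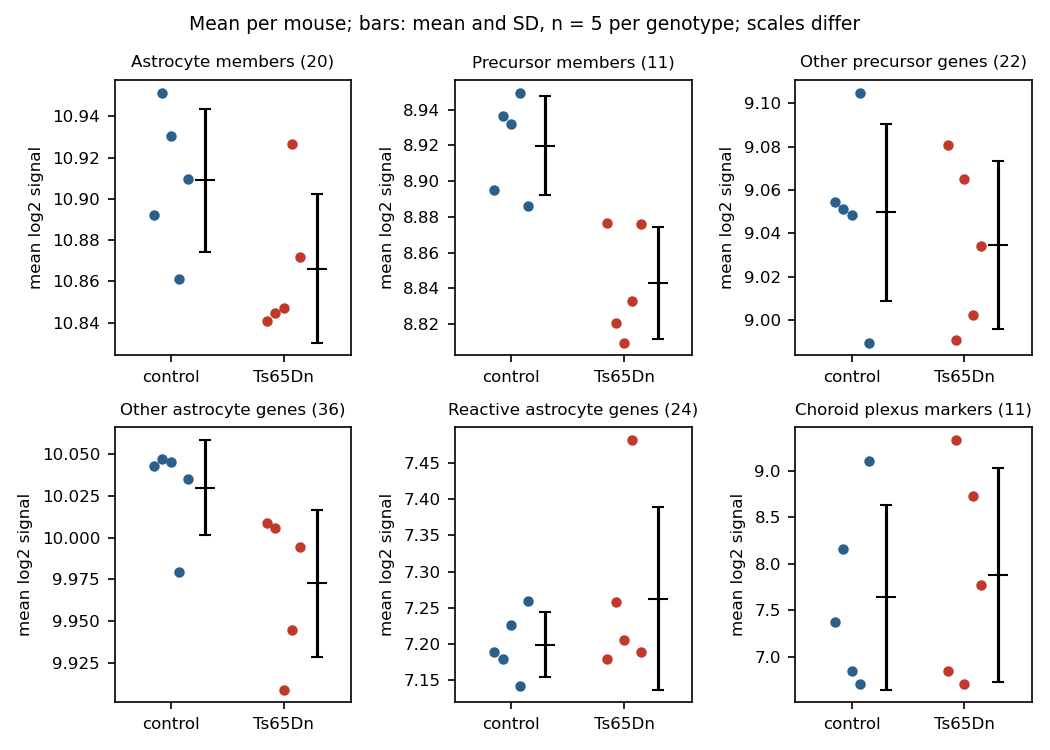
Mean log2 signal per mouse over the genes of each list (number of genes in the panel title), by genotype. Each point is a mouse and bars give mean and SD of 5 mice per genotype on scales that differ between panels. The OPC members do not overlap (at most 8.876 in Ts65Dn, at least 8.886 in controls), while the 20 astrocyte members, the other lists of both cell types, the reactive astrocyte genes and the choroid plexus markers overlap.

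The OPC members too were grouped by role with earlier results of these data known. All 5 receptors and surface proteoglycans had differences below 0, with a median of -0.09, but those of Pdgfra (-0.00) and Cspg4 (-0.01) were smaller than their SE. Cspg5, neuroglycan C, a transmembrane proteoglycan encoded at chr9:110243783-110262576, had the smallest p of the 31 members. Its log2 signal was 10.74, 10.61, 10.69, 10.56 and 10.67 in Ts65Dn mice 1 to 5 and 10.87, 10.72, 10.80, 10.74 and 10.76 in controls 1 to 5. Only Ts65Dn 1 and control 2 overlapped. The difference was -0.13 ± 0.04 (SE; 0.916-fold, 95% interval 0.858 to 0.978; limma, adjusted p = 1.00).

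Ptprz1 encodes a receptor tyrosine phosphatase whose ectodomain is a chondroitin sulphate proteoglycan, and its promoter is among those printed above. It was at 10.77, 10.70, 10.81, 10.88 and 10.89 in Ts65Dn mice 1 to 5 and at 10.85, 10.92, 10.92, 10.90 and 10.91 in controls 1 to 5. Ts65Dn 4 and 5 and control 1 formed the overlap. Its difference was -0.09 ± 0.04 (SE; 95% interval -0.18 to 0.00; limma, adjusted p = 1.00).

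Gpr17, a receptor of precursors that are leaving the cycle, had the difference farthest below 0, at -0.18 ± 0.09 (SE; 95% interval -0.38 to 0.03), and a wide spread. It was at 8.14, 7.88, 7.86, 8.26 and 8.09 in Ts65Dn mice 1 to 5 and at 8.10, 8.46, 8.19, 8.27 and 8.07 in controls 1 to 5. Ts65Dn 2 and 3 were below every control and the other trisomic mice within the range of the controls.

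The defining receptor of OPCs, Pdgfra, was at the same mean of 9.14 in both genotypes, with a difference of -0.00 ± 0.05 (SE; 0.999-fold, 95% interval 0.923 to 1.08), and -0.01 without Ts65Dn mouse 4. It was at 9.11, 9.16, 9.10, 9.19 and 9.14 in Ts65Dn mice 1 to 5 and at 9.01, 9.31, 9.15, 9.10 and 9.13 in controls 1 to 5, so the trisomic mice lay inside the range of the controls. Cspg4, the NG2 proteoglycan, was at 8.18, 8.06, 8.22, 8.17 and 8.19 in Ts65Dn mice 1 to 5 and at 8.05, 8.17, 8.18, 8.26 and 8.22 in controls 1 to 5. Its difference was -0.01 ± 0.05 (SE; 95% interval -0.12 to 0.09), with full overlap. The 2 genes by which OPCs are most often recognised therefore gave values near 0, while Cspg5, Gpr17 and Ptprz1 gave the lower ones. Whether these members differ from each other in their response was not tested.

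The remaining OPC members were a factor, an enzyme pair and genes of adhesion or secretion, and 5 of these 6 had differences below 0, with a median of -0.07. C1ql1, a secreted protein of the complement C1q family encoded at chr11:102939264-102946716, was at 9.23, 8.96, 8.95, 8.97 and 9.04 in Ts65Dn mice 1 to 5. In controls 1 to 5 it was at 9.28, 9.10, 9.18, 9.18 and 9.12. All trisomic mice except Ts65Dn 1 lay below all controls. The difference was -0.14 ± 0.06 (SE; 0.907-fold, 95% interval 0.831 to 0.991; limma, adjusted p = 1.00).

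Sox6, a transcription factor that holds OPCs in the precursor state, was the member with the smallest spread (pooled SD 0.0457). It was at 8.28, 8.29, 8.30, 8.26 and 8.40 in Ts65Dn mice 1 to 5 and at 8.36, 8.35, 8.42, 8.42 and 8.36 in controls 1 to 5. Only Ts65Dn 5 reached the controls, and the difference was -0.08 ± 0.04 (SE; 95% interval -0.16 to 0.00). Lhfpl3, a tetraspan membrane protein whose promoter is printed above, differed by -0.12 ± 0.06 (SE), Xylt1, which starts glycosaminoglycan chains on proteoglycans, by -0.07 ± 0.05 (-0.03 without Ts65Dn mouse 4) and Neu4, a sialidase, by -0.07 ± 0.06. Pcdh15, a protocadherin, was the exception at 0.04 ± 0.06, and its other transcript cluster gave -0.03.

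**Figure D4:**
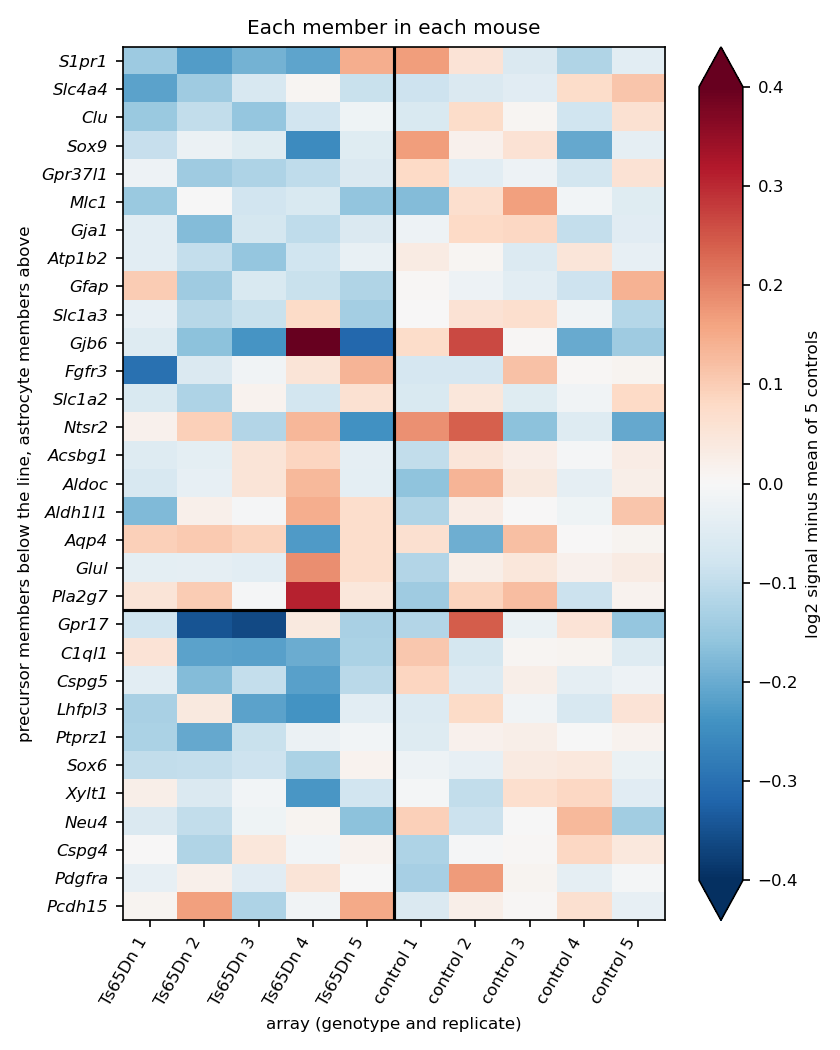
Log2 signal of each member (rows) in each mouse (columns) minus the mean of the 5 controls; blue is lower and red higher, the scale ends at -0.4 and 0.4, the vertical line parts the genotypes and the horizontal line the cell types. Ts65Dn mice 2 and 3 are the lowest for Gpr17 (7.88 and 7.86), and Ts65Dn mouse 4 departs from the other trisomic mice in Gjb6 (9.44), Pla2g7 (11.97), Glul (13.12) and Aqp4 (9.77).

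The astrocyte members were grouped by role after their values were seen, and no test was made between roles. All 4 transporters and pump subunits, 4 of 4 receptors and 3 of 3 of the filament, chaperone and factor genes had differences below 0, and so did 3 of 4 genes of channels, junctions and endfoot membrane. By contrast, 0 of 5 enzymes did. Without Ts65Dn mouse 4, however, 4 of these enzymes, Glul, Aldoc, Aldh1l1 and Acsbg1, were below 0 too, by -0.01 to -0.02.

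Of the secreted and structural members, Clu, clusterin, an extracellular chaperone encoded at chr14:65968483-65981548, was the one astrocyte gene at an unadjusted p under 0.05. Its log2 signal was 11.43, 11.48, 11.42, 11.50 and 11.56 in Ts65Dn mice 1 to 5 and 11.52, 11.65, 11.58, 11.50 and 11.64 in controls 1 to 5. Controls 1 and 4 fell within the range of the trisomic mice. The difference was -0.10 ± 0.04 (SE; 0.934-fold, 95% interval 0.874 to 0.997; limma, adjusted p = 1.00).

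Gfap, the intermediate filament that rises in reactive astrocytes, was at 10.52, 10.27, 10.35, 10.32 and 10.29 in Ts65Dn mice 1 to 5 and at 10.42, 10.39, 10.37, 10.33 and 10.55 in controls 1 to 5. The highest trisomic mouse lay just under the highest control, and 3 of the other trisomic mice lay below all controls. The difference was -0.06 ± 0.06 (SE; 0.958-fold, 95% interval 0.880 to 1.04). Sox9, a transcription factor of astrocytes, differed by -0.09 ± 0.07 (SE), and by -0.05 without Ts65Dn mouse 4.

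Transporters clear glutamate and ions from the synaptic space. Slc1a2, the main glutamate transporter, was at 12.69, 12.63, 12.77, 12.68 and 12.82 in Ts65Dn mice 1 to 5 and at 12.69, 12.80, 12.70, 12.74 and 12.83 in controls 1 to 5. The genotypes overlapped over most of their range, with a difference of -0.04 ± 0.05 (SE; 95% interval -0.14 to 0.06). Slc1a3, the other astrocytic glutamate transporter, was at 11.54, 11.46, 11.48, 11.65 and 11.44 in Ts65Dn mice 1 to 5 and at 11.57, 11.63, 11.64, 11.56 and 11.46 in controls 1 to 5. Its difference was -0.06 ± 0.05 (SE; 95% interval -0.17 to 0.05), with the highest value in Ts65Dn mouse 4, and -0.09 without that mouse.

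Atp1b2, the beta subunit of the sodium pump in astrocytes, was at 12.14, 12.09, 12.03, 12.10 and 12.15 in Ts65Dn mice 1 to 5 and at 12.22, 12.19, 12.13, 12.23 and 12.15 in controls 1 to 5. Controls 3 and 5 were in the trisomic range and the other controls above it. The difference was -0.08 ± 0.04 (SE; 0.946-fold; limma, adjusted p = 1.00). Slc4a4, the sodium bicarbonate cotransporter, differed by -0.10 ± 0.05 (SE) and, without Ts65Dn mouse 4, was the only astrocyte member at an unadjusted p under 0.05.

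Of the 4 receptors, Gpr37l1, an orphan receptor of astrocytes, had the smallest p. It was at 11.24, 11.12, 11.14, 11.16 and 11.20 in Ts65Dn mice 1 to 5 and at 11.34, 11.22, 11.24, 11.18 and 11.32 in controls 1 to 5. The ranges overlapped through Ts65Dn 1 and 5 and controls 2 and 4. Its difference was -0.09 ± 0.04 (SE; 0.940-fold; limma, adjusted p = 1.00). S1pr1, a receptor for sphingosine phosphate, differed by -0.13 ± 0.08, with 4 trisomic mice between 9.76 and 9.84, below all controls, and Ts65Dn 5 at 10.13. Fgfr3, a fibroblast growth factor receptor, differed by -0.04 ± 0.07 and Ntsr2, a neurotensin receptor, by -0.02 ± 0.10, and both by -0.06 without Ts65Dn mouse 4.

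Aqp4, the water channel of the endfeet, was at 10.09, 10.11, 10.09, 9.77 and 10.07 in Ts65Dn mice 1 to 5 and at 10.07, 9.80, 10.12, 10.001 and 10.01 in controls 1 to 5. One mouse of each genotype, Ts65Dn 4 and control 2, was low, and the difference was 0.03 ± 0.08 (SE; 95% interval -0.14 to 0.19), or 0.09 without Ts65Dn 4. Gjb6, a gap junction connexin, was highest in the same 2 mice, at 9.44 in Ts65Dn 4 and 9.20 in control 2, and between 8.62 and 9.01 in the others, an inverse pattern seen after the values were known and given with no test. Both mice were also among the 4 with the highest choroid plexus means, and the part of these markers in the pattern was not tested. The difference of Gjb6 was -0.05 ± 0.14 (SE), the least precise of the 31, and -0.19 without Ts65Dn 4. Gja1, the main connexin of astrocytes, differed by -0.09 ± 0.04 and Mlc1, a membrane protein of the endfeet, by -0.09 ± 0.06.

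The enzymes gave differences from 0.00 to 0.10. Aldh1l1, a folate enzyme widely used as an astrocyte marker, was at 8.67, 8.86, 8.84, 8.99 and 8.91 in Ts65Dn mice 1 to 5 and at 8.72, 8.87, 8.84, 8.82 and 8.95 in controls 1 to 5. The lowest and the highest value were both in trisomic mice, and the difference was 0.01 ± 0.06 (SE; 95% interval -0.12 to 0.15). Pla2g7, a lipase that cleaves platelet-activating factor, differed by 0.10 ± 0.07, with 11.97 in Ts65Dn mouse 4 against 11.53 to 11.79 in the other 9, and by 0.05 without that mouse. Glul, which makes glutamine from glutamate, differed by 0.03 ± 0.05 and by -0.00 in its other transcript cluster. Aldoc, the brain aldolase, differed by 0.01 ± 0.06 and Acsbg1, an acyl-CoA synthetase, by 0.00 ± 0.04.

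Further genes of the same cells were taken from wider lists. Of 36 other astrocyte genes measured, 0 passed, 1 was higher and 4 were lower at an unadjusted p under 0.05, and 28 had differences below 0, with a median of -0.06. Over all tested rows, 1.73% were higher and 1.43% lower at that unadjusted p. By the rank method 1 of the 36 genes was higher and 7 were lower, against 2.89% and 2.47% of all rows. The smallest p of the 36 belonged to Cbs, the enzyme that makes cystathionine. Its human counterpart is on the chromosome that is trisomic in Down syndrome, but Cbs is in 2 copies in Ts65Dn mice. It was at 8.82, 8.60, 8.73, 8.70 and 8.83 in Ts65Dn mice 1 to 5 and at 9.01, 9.09, 8.90, 9.07 and 8.82 in controls 1 to 5. Control 5 alone was in the trisomic range, and the difference was -0.24 ± 0.06 (SE; adjusted p = 0.475). Slc6a11, a GABA transporter, differed by -0.14 ± 0.05, Lcat, a cholesterol acyltransferase, by 0.17 ± 0.06 and S100b, a calcium-binding protein of astrocytes, by 0.03 ± 0.07 (-0.03 without Ts65Dn mouse 4).

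Reactive astrocyte genes had more values above than below 0. Of 24 measured, 0 passed and 0 had an unadjusted p under 0.05. The rank method called 1 higher, where 2.89% of all rows were. Differences were above 0 for 16, with a median of 0.03, which became 14 with a median of 0.02 without Ts65Dn mouse 4. S1pr3 differed by -0.08 ± 0.04 (SE), Serpina3n by 0.21 ± 0.12 (0.10 without that mouse) and Nes, nestin, by 0.09 ± 0.06. The mean over the list was 7.48 in Ts65Dn mouse 4 and between 7.14 and 7.26 in the other mice, and the difference between genotypes went from 0.06 to 0.01 without mouse 4.

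Of 22 other OPC genes, 0 passed, 1 was higher and 0 were lower at an unadjusted p under 0.05, and 15 had differences below 0, with a median of -0.03, or -0.02 without Ts65Dn mouse 4. Over all tested rows, 1.73% were higher and 1.43% lower at that unadjusted p. By the rank method 1 of the 22 genes was higher and 1 was lower, against 2.89% and 2.47% of all rows. The mean of the 22 genes overlapped between genotypes, at 9.03 ± 0.0388 in Ts65Dn mice and 9.05 ± 0.0410 in controls (SD, n = 5). The non-overlapping means of the 11 members were thus not seen in this wider list. Rprm, a regulator of the cell cycle that neurons express too, differed by 0.24 ± 0.09 (SE), Emid1 by -0.08 ± 0.05 and Gria3, a glutamate receptor subunit, by -0.06 ± 0.04.

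The factors that set the oligodendrocyte lineage include 2 genes in 3 copies. Olig1 was at 10.12, 10.05, 9.94, 9.99 and 10.23 in Ts65Dn mice 1 to 5 and at 9.80, 9.92, 9.80, 9.85 and 9.78 in controls 1 to 5. The genotypes did not overlap, which held in that direction for 135 of the 23410 tested rows. The difference was 0.24 ± 0.05 (SE; limma, adjusted p = 0.241). Olig2 differed by 0.20 ± 0.09 and Sox8, in 2 copies, by -0.12 ± 0.06. Of 12 genes of committed precursors 0 passed and 1 (Tmem2) was higher at an unadjusted p under 0.05, where 1.73% of all rows were. Differences were below 0 for 9, with a median of -0.08, or for 10 with a median of -0.05 without Ts65Dn mouse 4. Of the 12, Enpp6, a phosphodiesterase of newly formed oligodendrocytes, differed by -0.37 ± 0.19, Bmp4 by -0.17 ± 0.11 and Tmem2 by 0.14 ± 0.06.

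**Figure D5:**
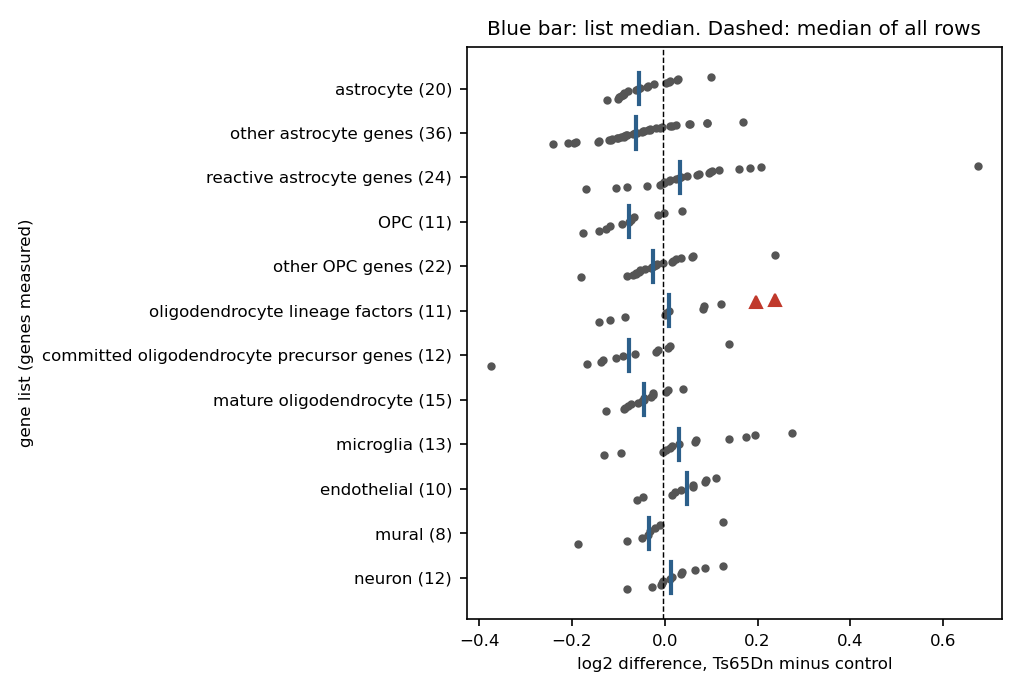
Log2 difference, Ts65Dn minus control, of each measured gene (points, in order of size; red triangles are the genes in 3 copies, Olig1 and Olig2) by gene list, with the list median (blue bar) and the median of all tested rows (dashed, -0.003). The medians of the astrocyte (-0.06) and OPC members (-0.08) lie left of the dashed line and that of the reactive astrocyte genes (0.03) right of it, where Lcn2 is the point at 0.67 (-0.21 without Ts65Dn mouse 4).

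Markers of other cells of the tissue were measured beside these lists, and 0 of them passed (limma). Rgs5 alone among the oligodendrocyte, microglial and vessel genes had an unadjusted p under 0.05. Over all tested rows, 1.73% were higher and 1.43% lower at that level. Of 15 genes of mature oligodendrocytes 12 had differences below 0 (median -0.05; 10 and a median of -0.01 without Ts65Dn mouse 4), and Fa2h differed by -0.13 ± 0.11 (SE), Apod by -0.09 ± 0.09 and Mbp by -0.05 ± 0.06. Of 13 microglial genes 3 did (median 0.03), with C1qc at 0.27 ± 0.20, Trem2 at -0.13 ± 0.10 and C1qa at 0.17 ± 0.13. Without Ts65Dn mouse 4, 6 of them did, C1qc was at 0.15 and C1qa at 0.04, and the difference of the list mean went from 0.06 to 0.002. Of 10 endothelial genes 2 did (median 0.05), with Esam at 0.09 ± 0.06, Flt1 at -0.06 ± 0.05 and Cldn5 at 0.11 ± 0.11. Of 8 mural genes 7 did (median -0.03), with Rgs5 at 0.13 ± 0.05, Acta2 at -0.19 ± 0.14 and Pdgfrb at -0.08 ± 0.07 (-0.03 without Ts65Dn mouse 4). Neuronal genes had a median of 0.01. The mean over each of these lists overlapped between genotypes, and their part in the values of the members was not tested. Choroid plexus markers were above 0 for 11 of 11, by a median of 0.24, with means per mouse that overlapped between genotypes. Without Ts65Dn mouse 4, 9 of 11 were above 0, by a median of 0.06, and the difference of the list mean went from 0.24 to 0.02.

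Which members came nearest to the threshold depended on the mice in the comparison. With the 4 arrays of highest choroid plexus mean left out, a choice made after seeing the data, 0 astrocyte members and 1 OPC member (Neu4) had an unadjusted p under 0.05. Then 12 of 20 and 8 of 11 members were below 0, with medians of -0.06 and -0.07. The number of astrocyte members at that level went from 0 to 4 and that of OPC members from 1 to 5 as each mouse was left out in turn. Cspg5 was among them in each of these 10 comparisons.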

How the data were processed

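Hippocampal RNA of 10 mice was measured on Affymetrix Mouse Gene 1.0 ST arrays. The authors deposited 1 log2 signal per transcript cluster and array, computed with RMA (background correction, quantile normalization and a summary over probes), in which ratios of dim genes are shrunk. RMA, limma and mm10 are listed, with no versions, in the submitters' processing notes. Of 35556 rows, the platform annotation gave 1 symbol to 21789, several to 1621 and none to 12146, and the 23410 rows with a symbol were tested. Probe positions were not checked, and coordinates are RefSeq's for the gene. The comparison used limma 3.58.1 in R 4.3.3 (lmFit, then eBayes) with no term besides genotype, and two-sided p-values were adjusted by Benjamini-Hochberg across the tested rows. The number of mice, 5 per genotype, limits the precision. The members, the 16 gene lists (232 of 244 genes found), the roles and the tests were chosen with earlier results of these data known. Members at an unadjusted p under 0.05, the 3 with the smallest p of each cell type and a set of defining markers are given mouse by mouse, the others by difference. Of each other list the 3 genes with the smallest p are named, plus Olig1, Olig2, Cbs and S100b. The rank method, which ranks fold changes over 25 pairs of arrays, was written anew and may differ from the program of the study. The comparison was repeated with other sets of rows, without dim rows, with 3 normalizations, 3 variance models, another threshold, the rank method, the replicate number as a block and other summaries, and without each array. The fit was tested on simulated data. Plots were drawn with matplotlib 3.10.9.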

Additional observations from a re-analysis of the deposited data

Results flagged for a closer look

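The 31 members were searched in each genotype, with both means per list, for a mouse far from the other 4 of its genotype, by the gap to the nearest mouse as a share of the whole range of the genotype. Of 66 groups of 5 mice, 3 were above the 95% limit of Dixon for 5 values, and chance alone gives about 1 in 20. Aqp4 in Ts65Dn mice had a share of 0.897, with mouse 4 lowest at 9.77 and the nearest at 10.07. S1pr1 in Ts65Dn mice had a share of 0.789, with mouse 5 highest at 10.13 and the nearest at 9.84. Glul in controls had a share of 0.826, with mouse 1 lowest at 12.82 and the nearest at 12.95.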

How the results depend on the processing

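In the limma fit and each of its alternatives 0 members passed, and the medians of both lists stayed below 0. The rank method called 1255 transcript clusters (677 higher and 578 lower) against 74 in the limma fit, 1 of them an astrocyte and 4 of them OPC members. Without the 4 arrays of highest choroid plexus mean, an alternative chosen after seeing the data that leaves 3 mice per genotype, 0 transcript clusters passed in limma, and 0 astrocyte and 1 OPC member had an unadjusted p under 0.05. The number of astrocyte members at that level, 1 in the full comparison, was 0 with rows above the 25th percentile or the median of signal or with arrays centred on their medians, 3 after a further quantile normalization, 4 with cyclic loess and 3 with array weights, and that of OPC members, 2 in the full comparison, was 4 with array weights. The median over members in place of the mean gave differences of -0.0803 for astrocytes and -0.117 for OPCs. The causes were not tested.

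Leaving out each mouse in turn gave 51 to 63 calls, 0 members called, 0 to 4 astrocyte members and 1 to 5 OPC members at an unadjusted p under 0.05. The astrocyte count was 0 without Ts65Dn 2, Ts65Dn 3, control 2 or control 5, 2 without control 1, 3 without Ts65Dn 5 and 4 without control 4. The OPC count was 1 without Ts65Dn 3, control 3 or control 4, 3 without Ts65Dn 4 or control 5, and 5 without Ts65Dn 5. The difference of the astrocyte mean ranged from -0.06 to -0.03 and that of the OPC mean from -0.09 to -0.07. With the replicate number as a block, 76 transcript clusters and 0 members passed, and 3 astrocyte (Clu, Slc4a4 and Gpr37l1) and 3 OPC members had an unadjusted p under 0.05. Nothing in the labels says that a number pairs 2 mice, and the deviations of same-numbered mice correlated by 0.0313 to 0.507 over transcript clusters.

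Members whose difference was near 0 changed sign with the setting (log2 difference under it in parentheses). This was so with arrays centred on their medians for Pdgfra (0.00303), after a further quantile normalization for Acsbg1 (-0.00898), with cyclic loess for Acsbg1 (-0.00356), with array weights for Aldh1l1 (-0.0148), Aldoc (-0.0244) and Acsbg1 (-0.0199), without the 4 arrays of highest choroid plexus mean for Gfap (0.0128), Slc1a2 (0.0470), Pdgfra (0.0275) and Cspg4 (0.0317), and with the choroid plexus mean as a covariate for Aldh1l1 (-0.00352) and Acsbg1 (-0.000573). As each mouse was left out in turn, the differences of members near 0 went from -0.0800 to 0.0285 for Fgfr3, from -0.0349 to 0.0411 for Pdgfra, from -0.0453 to 0.0125 for Cspg4, from -0.0310 to 0.0437 for Aldoc, from -0.0741 to 0.0368 for Ntsr2, from -0.0227 to 0.0155 for Acsbg1, from -0.0229 to 0.0580 for Aldh1l1, from -0.0116 to 0.0458 for Glul, from -0.192 to 0.0138 for Gjb6, and from -0.0225 to 0.0900 for Aqp4. Signs changed in 37 values of single members under the alternatives, 762 values kept their sign and side of the threshold, and 5 were called by the rank method alone. Signals close to background understate fold changes, which bears most on Neu4 and Pcdh15.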

Other observations

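Genes of neighbouring tissues and of neurons were measured as well. Among ependymal genes, Rarres2, a secreted chemoattractant, differed by -0.18 ± 0.07 (log2, Ts65Dn minus control, SE), Dynlrb2 by 0.03 ± 0.05 and Foxj1 by 0.03 ± 0.06. Among genes of fibroblasts and meninges, Col1a2 differed by -0.09 ± 0.06, Slc22a6 by -0.14 ± 0.11 and Ogn by -0.15 ± 0.21 (-0.06, -0.09 and -0.05 without Ts65Dn mouse 4). Choroid plexus genes had wide errors, with Cldn2 at 0.28 ± 0.34, Calml4 at 0.27 ± 0.42 and Folr1 at 0.26 ± 0.47 (0.16, 0.08 and 0.13 without Ts65Dn mouse 4). Among neuronal genes the neurofilament genes Nefl and Nefm differed by 0.06 ± 0.03 and 0.13 ± 0.06 and Neurod6 by 0.09 ± 0.06, with Nefm at 0.08 without Ts65Dn mouse 4. Nefl was higher in each Ts65Dn mouse than in each control, as were 135 of the 23410 tested transcript clusters. None of the genes named in this paragraph passed over all transcript clusters (limma, adjusted p of 1.00 each).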
